A study of Mus musculus with 10 samples.

Results

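The 10 mouse Frizzled genes, Fzd1 to Fzd10, encode the cell-surface receptors of WNT ligands. They were taken by gene symbol from a count table of 55401 genes, and each of the 10 had its own row. The family was chosen by symbol whatever each gene's value, but with the differences between double-knockout and wild-type embryos in these same counts known, that of Fzd1 among them. What follows on the levels of the family in the 2 genotypes is therefore a description. Which Frizzled genes passed a threshold is stated as part of it, without their p-values, and is not independent evidence of a difference. RNA was sequenced from the ectoderm of mouse forelimb buds at embryonic stage E9.75, the epithelium that covers the bud. It was peeled off with forceps after 20 minutes in 0.25% trypsin, and a replicate pools about 2 buds. The groups are 3 libraries from embryos lacking both Sp8 and Sp6, zinc finger transcription factors of the limb ectoderm (double knockout, DKO), and 3 from wild-type (WT) littermates. The labels used here do not name the alleles, the way they were made or the strain, and E10.5 samples of the same series were not analysed here.

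A Frizzled protein crosses the membrane with 7 helices and binds WNT through an extracellular cysteine-rich domain. With the co-receptors LRP5 and LRP6 it stabilises beta-catenin, which activates target genes with TCF and LEF factors. With ROR and other partners, and with the core planar polarity proteins, it instead orients cells and shapes tissue. In limb ectoderm, beta-catenin signalling is needed to form and keep the apical ectodermal ridge, the distal rim that drives outgrowth. By sequence the family falls into subgroups: Fzd1, Fzd2 and Fzd7; Fzd5 and Fzd8; Fzd3 and Fzd6; and Fzd4, Fzd9 and Fzd10.

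Library totals lay between 64432348 and 87040786 counts. Levels of a gene are given in CPM, counts scaled by TMM to library size, and levels between genes in TPM, which also divide by exon length. A gene is named as called where its Benjamini-Hochberg adjusted p was under 0.05 in edgeR's quasi-likelihood test across all tested genes. The targeted gene Sp8 was at 5.86, 2.38 and 2.80 CPM in the libraries named DKO 17, DKO 40 and DKO 41, against 34.1, 43.2 and 31.3 CPM in WT 32, WT 53 and WT 56 (9.84-fold lower, edgeR adjusted p = 0.000806). For Sp6 the values were 133.2, 13.9 and 76.9 CPM in DKO, against 228.5, 312.0 and 319.9 CPM in WT. Sp6 was not called (edgeR adjusted p = 0.207); the DKO libraries retained Sp6 reads, most in DKO 17, and counts per gene do not show from which part of it. Exons of Sp6 also overlap those of the antisense gene Gm11532, whose reads these unstranded libraries cannot separate. Ectoderm markers were present in all 6 libraries, with a sum of 1857 to 2504 CPM in DKO and 3064 to 3373 CPM in WT over a list of 10, of which 3 were called lower and 1 higher. Limb mesenchyme markers were present in both groups too, and they went different ways. Of a list of 12, 1 was called lower in DKO (Pdgfra, 7.66 ± 4.41 CPM in DKO and 66.6 ± 28.6 CPM in WT, edgeR adjusted p = 0.00696) and 0 higher. Prrx1 was at 3.51, 23.3 and 12.8 CPM in DKO and at 29.0, 1.61 and 0.412 CPM in WT, with overlapping groups. Prrx2, Twist1 and Twist2 were not called, with each DKO library above each WT library.

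Fzd1 was the member that differed most between the groups, and its promoter is shown for that reason beside that of Fzd7, the subgroup member with a window in the same table. Fzd1 is a gene of 1 exon on chromosome 5 (GRCm38, 4753839 to 4758035, minus strand), and Fzd7 a gene of 1 exon on chromosome 1 (59482424 to 59486955, plus strand). The windows are RefSeq sequence of GRCm38.p6, from 250 bases before to 50 bases after the RefSeq start, chr5:4758167-4758466 on the minus strand and chr1:59481897-59482196 on the plus strand. These starts lie upstream of the GENCODE M21 starts by 181 bases for Fzd1 and 277 for Fzd7. Neither window reaches the GENCODE start, so the bases next to that start were not searched. Capitals mark matches on either strand to the GC box GGGCGG, which SP and KLF factors bind, the CACC box CACCC, or CTTTGA, the core of TCF and LEF sites. Where GC boxes overlap, they run together.
Fzd1: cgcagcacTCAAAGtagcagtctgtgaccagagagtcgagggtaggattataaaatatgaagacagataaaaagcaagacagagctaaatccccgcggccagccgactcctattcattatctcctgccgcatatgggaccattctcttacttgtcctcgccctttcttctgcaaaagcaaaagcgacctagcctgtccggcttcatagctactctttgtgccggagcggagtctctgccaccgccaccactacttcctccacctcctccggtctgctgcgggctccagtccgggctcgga
Fzd7: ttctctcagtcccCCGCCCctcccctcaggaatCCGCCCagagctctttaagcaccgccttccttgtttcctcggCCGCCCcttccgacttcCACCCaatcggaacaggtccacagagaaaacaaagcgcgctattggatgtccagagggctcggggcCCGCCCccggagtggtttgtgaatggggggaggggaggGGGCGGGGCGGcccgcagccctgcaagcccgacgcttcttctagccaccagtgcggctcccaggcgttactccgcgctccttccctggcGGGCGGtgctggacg

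The Fzd1 window held 0 GC boxes, 0 CACC boxes and 1 TCF and LEF core, which begins at -242 from the start. The Fzd7 window held 7 GC boxes and 1 CACC box. Promoter windows were found for 6 of the 10 members: Fzd1, Fzd4, Fzd5, Fzd7, Fzd9 and Fzd10. A GC box was in 5 of these 6 and in 35.7% of 32851 windows of the same length, and a CACC box in 3 of 6 and 57.5%. The TCF and LEF core was in 1 of 6 and in 5257 of the 32851 windows. The homeobox core TAATTA was in 0 of 6 and in 5.29%. The windows differ in base composition, with 54.0% G and C in that of Fzd1 and between 66.7% and 78.0% in the other 5, against a median of 52.7% over all windows. Matches of these letters are not known binding sites.

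**Figure D1:**
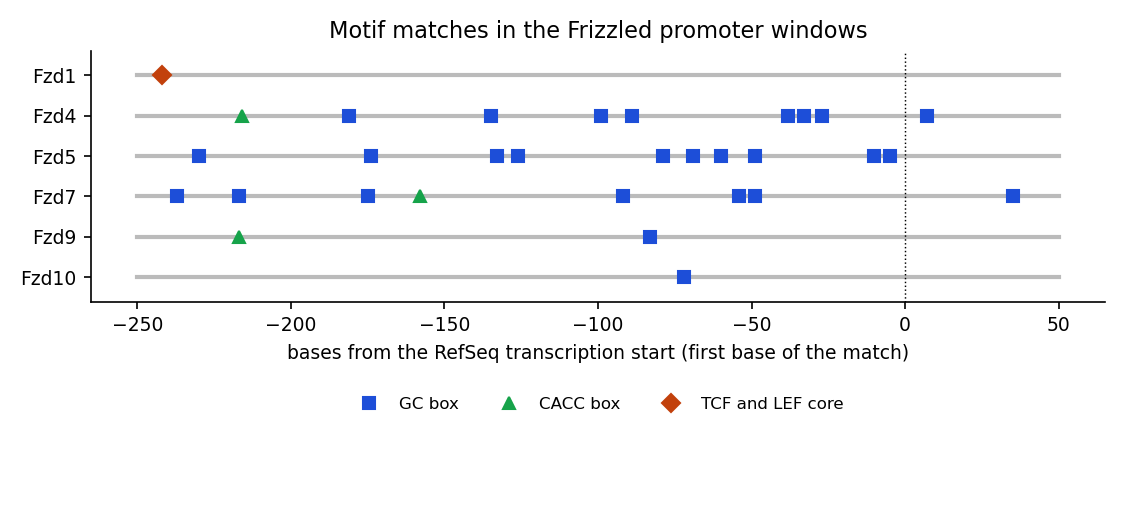
Motif matches along the promoter windows of 6 Frizzled genes; the horizontal axis is the distance in bases from the RefSeq start to the first base of a match, and each symbol is 1 match. Fzd1 has 1 TCF and LEF core and 0 GC boxes, whereas Fzd5 has 10 and Fzd4 has 8 GC boxes.

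Fzd1, a receptor of the beta-catenin branch, was at 37.3, 28.4 and 29.0 CPM in DKO 17, DKO 40 and DKO 41, against 229.5, 300.3 and 267.6 CPM in WT 32, WT 53 and WT 56. The groups lay far apart, and the highest DKO library, DKO 17, was also the DKO library with the most Sp8 and Sp6. DKO 40 and DKO 41 were close in Fzd1 but differed in Sp6, at 13.9 and 76.9 CPM. A link between Fzd1 and the remaining Sp8 or Sp6 reads was not tested. The means were 31.57 ± 4.998 CPM in DKO and 265.8 ± 35.4 CPM in WT (SD, n = 3 each), an 8.42-fold lower level in DKO. The log2 fold change, DKO minus WT, was -3.07 with a standard error (SE) of 0.16. It stayed between -3.21 and -2.98 when each library was left out in turn. Among 11304 tested genes with a mean of at least 5 CPM in the higher group, 80 (0.708%) had a log2 fold change as low as that of Fzd1 or lower. Over all 19126 tested genes the number was 220. The Fzd1 difference was known when the family was chosen, so this place is a description only. Each library holds RNA of the whole peeled tissue, so fewer cells expressing Fzd1 and less Fzd1 RNA per cell cannot be told apart.

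Most ridge markers and most ectoderm markers were also lower on average in DKO. A list of 10 ridge markers, Sp8 and Sp6 among them, summed to 224.9, 66.9 and 110.0 CPM in DKO, against 1643, 1731 and 2025 CPM in WT. Of these 10, 7 were called lower and 0 higher in DKO, and Fgf9, Bmp2 and Sp6 were not called. Of the 10 ectoderm markers, Cdh1, Epcam and Perp were called lower and Krt8 was called higher. The other 6 were not called, though each was lower on average in DKO. Krt5 fell most, at 12.7, 8.09 and 65.0 CPM in DKO, against 319.9, 253.9 and 362.7 CPM in WT. Fgf4 was the 1 ridge marker at 0 counts in all DKO libraries. The part of ridge cell number in the Fzd1 difference was not tested. As a percentage of the summed ectoderm markers, Fzd1 was 1.83, 1.53 and 1.16 in DKO, against 7.43, 9.80 and 7.93 in WT. The groups did not overlap on that scale, which does not adjust for ridge cells. Fzd1 was not scaled to the ridge marker sum, which was itself far lower in DKO.

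Fzd2 and Fzd7 complete the subgroup of Fzd1. Fzd2 (chromosome 11, 102604396 to 102608058, plus strand, 1 exon), a receptor that binds WNT5A and whose human counterpart is mutated in skeletal dysplasias with short limbs, was at 134.9, 205.9 and 135.9 CPM in DKO, against 116.7, 126.9 and 109.8 CPM in WT. Every DKO library was above every WT library, though DKO 17 and DKO 41 by little, and DKO 40 stood apart. Its means were 158.9 ± 40.7 CPM in DKO and 117.8 ± 8.59 CPM in WT, with a log2 fold change of 0.43 (SE 0.17) that was not called. Without DKO 40 the log2 fold change was 0.20. As a percentage of the ectoderm marker sum, which was lower in DKO, Fzd2 was 6.62, 11.1 and 5.43 in DKO, against 3.77, 4.14 and 3.26 in WT, so the groups were further apart on that scale.

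For 3 mesenchyme markers, as for Fzd2, each DKO library was above each WT library and DKO 40 was highest; apart from Twist1 they were picked out after their values were seen. Twist1 was at 20.4, 46.7 and 21.4 CPM in DKO, against 14.8, 3.06 and 1.47 CPM in WT. Prrx2 was at 83.0, 174.3 and 65.4 CPM in DKO, against 49.4, 37.3 and 18.5 CPM in WT. Twist2 was at 12.3, 67.1 and 26.1 CPM in DKO, against 7.39, 2.31 and 0.549 CPM in WT. The whole list of 12 summed to 232.0, 503.7 and 324.2 CPM in DKO, against 431.4, 416.2 and 392.3 CPM in WT, with Col1a2 and Pdgfra, both lower on average in DKO, a large part of the WT sums. Col1a1, Tbx5, Grem1 and Hoxa11 were also lower on average in DKO, and Prrx1, Hand2 and Fgf10 were higher. For each of these the groups overlapped and the gene was not called. The part of mesenchymal RNA in the Fzd2 level was not tested.

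Fzd7, known from early mouse development and from stem cells of the intestine, was at 63.0, 66.5 and 68.5 CPM in DKO, against 78.3, 88.3 and 91.9 CPM in WT. The groups did not overlap, but the gap between them was small. The means were 66.0 ± 2.79 CPM in DKO and 86.2 ± 7.05 CPM in WT, 1.31-fold lower in DKO, with a log2 fold change of -0.38 (SE 0.12). It was not called by edgeR and was called by DESeq2. As a percentage of the ectoderm marker sum, Fzd7 was 3.09, 3.58 and 2.74 in DKO, against 2.53, 2.88 and 2.73 in WT, so on that scale, whose denominator is itself lower in DKO, it was not lower. In CPM, the differences within this subgroup of close relatives ran from 8.42-fold lower to 1.35-fold higher.

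**Figure D2:**
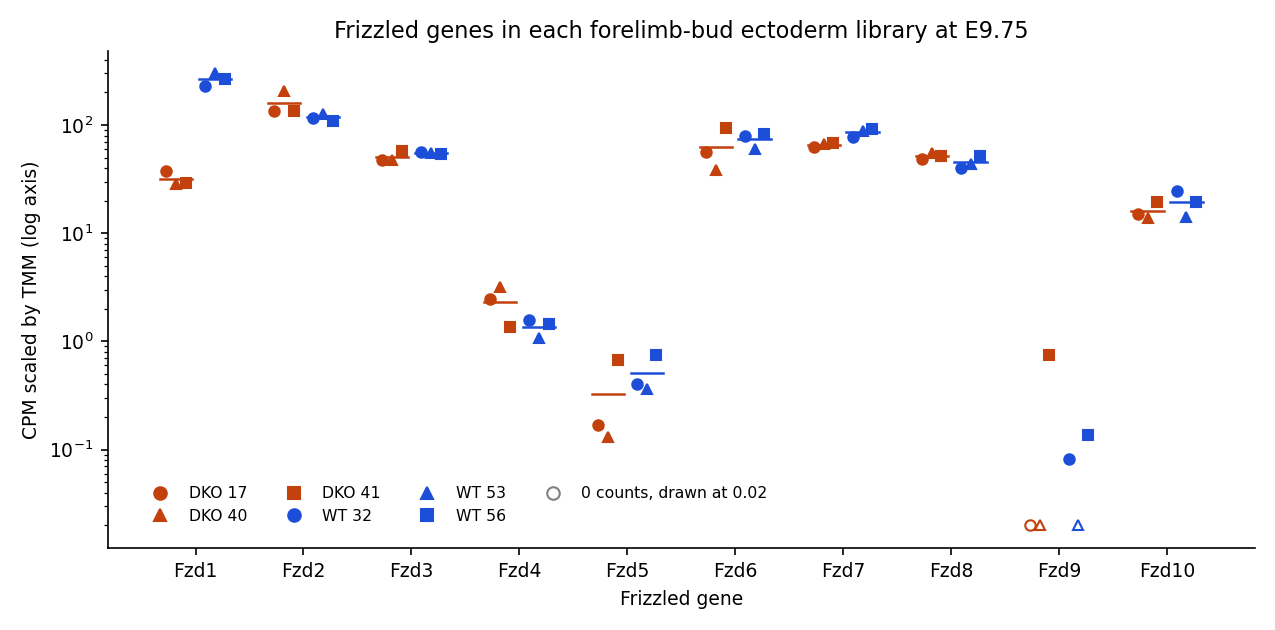
Level of each Frizzled gene in each library, in CPM scaled by TMM on a log axis; DKO libraries are orange-red and WT libraries blue, horizontal bars are group means (none for Fzd9), and open symbols are 0 counts. For Fzd1 the DKO libraries sit between 28.4 and 37.3 CPM and the WT libraries between 229.5 and 300.3 CPM, while for most other members the groups overlap or lie close.

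Fzd8 and Fzd5 form the next subgroup. Fzd8, a receptor of the beta-catenin branch, was at 48.6, 54.8 and 51.2 CPM in DKO, against 40.2, 43.8 and 51.5 CPM in WT. These ranges overlap, with a log2 fold change of 0.19 (SE 0.14). Fzd5 (chromosome 1, 64730558 to 64737751, minus strand, 2 exons), known from eye and yolk sac development in mouse, was barely detected, with 14, 10 and 60 counts in DKO and 35, 23 and 66 counts in WT. The highest library of each group, DKO 41 and WT 56, lay well above the others of its group. The log2 fold change of Fzd5 was -0.63 (SE 0.67), -1.80 without DKO 41 and -0.21 without WT 56. In exons, 1233 bases of Fzd5 overlap the predicted gene Gm38058 on the opposite strand, which was itself at 0.0280 CPM in DKO and 0.00386 CPM in WT on average.

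Fzd3 and Fzd6 are the receptors best known from planar polarity, which in mouse orients hair follicles and guides axons. Fzd3 lies on chromosome 14 (65192449 to 65262463, minus strand) and Fzd6 on chromosome 15 (39006034 to 39038188, plus strand), with 7 exons each. Fzd3 was at 47.3, 47.2 and 57.5 CPM in DKO, against 56.4, 54.9 and 54.5 CPM in WT. DKO 41 exceeded the WT libraries and the other 2 DKO libraries lay below them, with a log2 fold change of -0.12 (SE 0.13). Fzd6 was at 56.8, 38.3 and 93.0 CPM in DKO, against 79.1, 60.1 and 82.9 CPM in WT. Fzd6 varied widely among the DKO libraries, 62.7 ± 27.8 CPM in DKO and 74.0 ± 12.2 CPM in WT, and its log2 fold change was -0.24 (SE 0.28). In exons, 152 bases of Fzd6 overlap the noncoding gene Gm26704 on the opposite strand. The Fzd6 value depended on single libraries: it was 0.017 without DKO 40 and -0.65 without DKO 41.

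Markers of periderm, the flat outer layer of embryonic skin, were also uneven across the libraries. A list of 8 summed to 1032, 783.9 and 1306 CPM in DKO, against 1246, 895.1 and 1368 CPM in WT. DKO 41, WT 32 and WT 56 were the 3 highest libraries for both Fzd6 and this sum, and DKO 40 the lowest. This was not particular to periderm: within each group the ectoderm marker sum also put the libraries in the order of Fzd6. The periderm marker Krt19 did not in DKO, at 510.6, 280.3 and 435.3 CPM in DKO 17, DKO 40 and DKO 41. Of the 7 tested, 3 were called lower and 1, Krt19, higher. Krt19, Sfn and Cldn4 made up most of the sum, and the keratin Krt4 was at 0 counts in all 6 libraries. The part of periderm cells in the Fzd6 level was not tested.

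The remaining subgroup is Fzd10, Fzd4 and Fzd9. Fzd10 (chromosome 5, 128600844 to 128604093, plus strand, 1 exon), whose chick counterpart is expressed in limb buds, was at 15.1, 13.9 and 19.4 CPM in DKO, against 24.6, 14.1 and 19.4 CPM in WT. The ranges overlap, with a log2 fold change of -0.27 (SE 0.24). Fzd4 (chromosome 7, 89404355 to 89413134, plus strand, 2 exons), the receptor of Norrin in retinal vessels, was low, at 2.46, 3.18 and 1.36 CPM in DKO, against 1.56, 1.07 and 1.45 CPM in WT. DKO 41 lay within the WT range and the other 2 DKO libraries above it, with a log2 fold change of 0.72 (SE 0.41). A list of 8 endothelial markers summed to 52.2, 75.1 and 52.8 CPM in DKO, against 33.6, 47.9 and 36.5 CPM in WT. Egfl7 made up most of the sum, Cdh5 was at 0 counts in all 6 libraries, and the others were under 1 CPM in each. Kdr and Cldn5 were highest in DKO 40, and Pecam1 and Tek in DKO 17. Esam was highest in WT 53 and Tie1 in WT 32. The part of endothelial cells in the Fzd4 level was not tested.

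Fzd9 (chromosome 5, 135248938 to 135251230, minus strand, 1 exon), a gene of the region deleted in human Williams syndrome, was close to undetected. It had 0, 0 and 67 counts in DKO 17, DKO 40 and DKO 41, against 7, 0 and 12 counts in WT 32, WT 53 and WT 56. A library with 0 counts allows up to 0.0360 CPM in DKO 17, 0.0392 CPM in DKO 40 and 0.0474 CPM in WT 53, from 3 counts per library and for counting error only. The reads in DKO were thus all from 1 library. DKO 41 also held the most blood transcript, 918.8 CPM over 10 markers against 27.0 and 127.4 CPM in the other DKO libraries and 0.116, 300.8 and 0 CPM in WT. WT 53, with 300.8 CPM of blood transcript, had 0 Fzd9 counts. The part of blood cells in the Fzd9 reads of DKO 41 was not tested. Fzd9 did not pass the filter on low counts, so 9 of the 10 members were tested.

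Of the 9 tested members, 1 was called lower in DKO, Fzd1, and 0 were called higher. Across all 19126 tested genes, 4.51% were called, 2.81% lower and 1.70% higher. At an unadjusted p under 0.05, edgeR gave 2 members lower (Fzd1 and Fzd7) and 1 higher (Fzd2). The share of all tested genes at that unadjusted threshold was not taken, so these counts have no background beside them. DESeq2 called 2 members lower and 0 higher, and 1670 genes in all, more than edgeR. The libraries of the groups did not overlap for 3 members (Fzd1 and Fzd7 below, Fzd2 above), against 21.9% of all tested genes. The median log2 fold change was -0.24 over the tested members and 0.03 over all tested genes. Since the family was chosen with this comparison known, nothing is read from these counts. The 8 tested members that were not called had log2 fold changes of at most 0.72 in size, and missing the threshold does not show that they were equal in both groups.

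**Figure D3:**
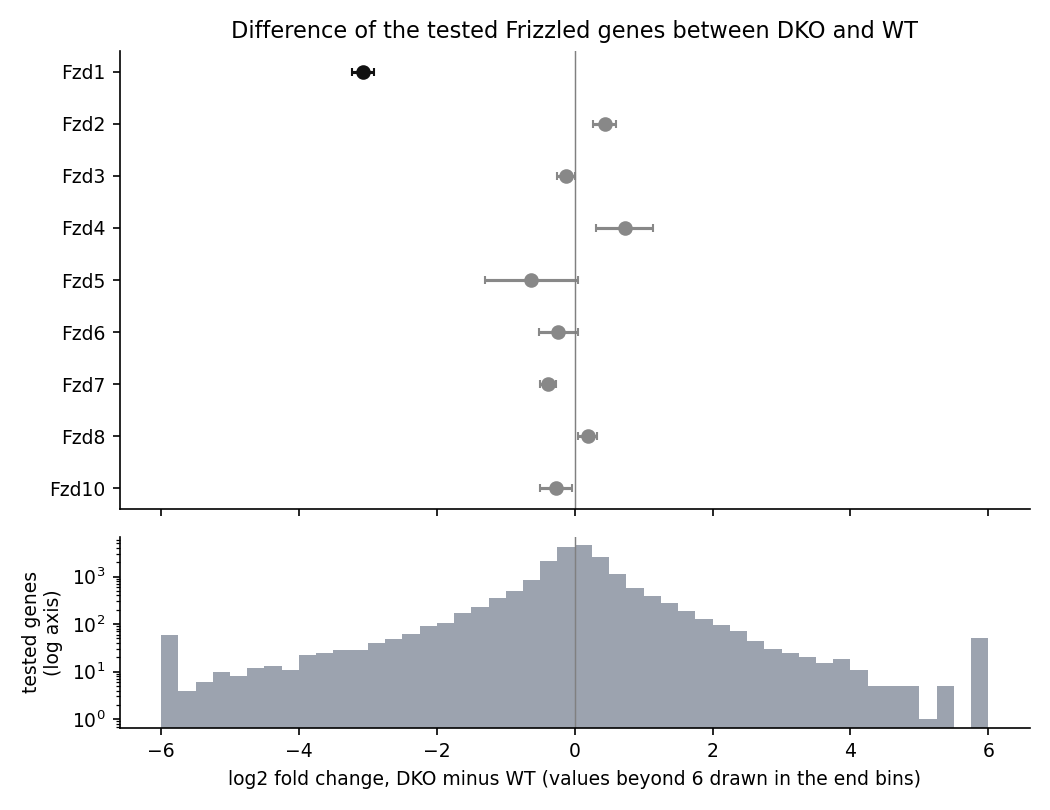
Log2 fold change (DKO minus WT) of the 9 tested Frizzled genes with standard errors as bars, above a histogram of all 19126 tested genes on a log count axis, with values beyond 6 in the end bins. Fzd1, in black, lies at -3.07, and the other members, in grey, lie between -0.63 and 0.72.

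Divided by exon length, Fzd1 was the fifth most abundant Frizzled transcript in DKO and the most abundant in WT. In DKO the order was Fzd2 (125 ± 29.5 TPM), Fzd7 (42.2 ± 4.03), Fzd6 (38.2 ± 19.1), Fzd8 (24.9 ± 2.04), Fzd1 (21.7 ± 2.86), Fzd10 (14.5 ± 3.43) and Fzd3 (11.5 ± 2.02), all in TPM with SD over 3 libraries. In WT the order was Fzd1 (187.6 ± 21.6 TPM), Fzd2 (95.3 ± 3.26), Fzd7 (56.4 ± 5.49), Fzd6 (45.8 ± 9.11), Fzd8 (22.5 ± 3.49), Fzd10 (17.8 ± 5.12) and Fzd3 (12.8 ± 0.52), likewise in TPM. Fzd4, Fzd5 and Fzd9 were the lowest 3 in both groups, the highest value of them in any library being 1.33 TPM. Not every place in these orders is distinct. In DKO the library ranges of Fzd2 and Fzd7 did not overlap, nor did those of Fzd1 and Fzd10 or of Fzd3 and Fzd4, while the other neighbours overlapped. In WT the overlapping neighbours were Fzd7 with Fzd6, Fzd8 with Fzd10, Fzd10 with Fzd3, and Fzd5 with Fzd9.

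The make-up of the summed Frizzled RNA differed between the groups. Shares are parts of a single total, so a lower Fzd1 share by itself raises those of the other members. The Fzd1 share of the summed Frizzled level was 10.1%, 6.56% and 7.04% in DKO, against 39.3%, 46.4% and 42.4% in WT. Fzd2 made up 41.7%, 54.5% and 37.8% in DKO, against 22.9%, 22.4% and 19.9% in WT. Per library, the ratio of Fzd1 to Fzd2 was 0.242, 0.120 and 0.186 in DKO, against 1.72, 2.07 and 2.13 in WT. The whole family summed to 279.5 ± 30.0 TPM in DKO and 439.0 ± 23.7 TPM in WT. Without Fzd1 the sums were 257.8 ± 32.4 TPM in DKO and 251.4 ± 15.4 TPM in WT, and their ranges overlap (220.8 to 280.9 in DKO, 235.7 to 266.5 in WT). The lower family total in DKO was thus about the size of the Fzd1 difference alone.

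**Figure D4:**
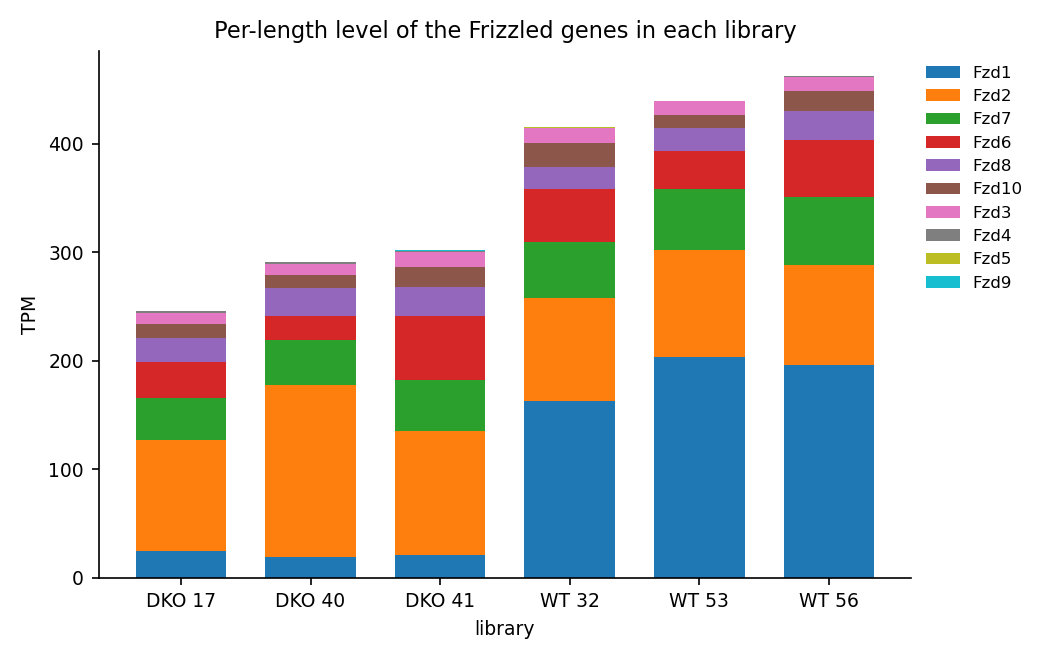
Summed level of the 10 Frizzled genes in each library, in TPM, stacked by gene. Fzd1 (blue, at the base) makes up 6.56% to 10.1% of each DKO bar and 39.3% to 46.4% of each WT bar, and the total without Fzd1 overlaps between the groups.

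Smo, the remaining gene of the Frizzled receptor class and the transducer of hedgehog signals, was chosen after its values were seen. It was at 221.3 ± 8.04 CPM in DKO and 225.2 ± 5.03 CPM in WT, with a log2 fold change of -0.03 (SE 0.10).

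Profiles over the 6 libraries most like that of Fzd1 were sought among 10120 tested genes with a mean of at least 5 CPM, predicted genes and pseudogenes left out. Likeness was the root mean square difference of centred log2 CPM, whose median over those genes was 1.55. The Fzd1 profile is mainly its gap between the groups. Nearness to it thus restates a DKO and WT difference of like size and is not evidence of shared regulation. The 3 nearest were the amino acid transporter gene Slc16a10 (0.150), Lmo7 (0.153), which encodes a LIM domain protein of cell junctions, and the transcription cofactor gene Lbh (0.299). Slc16a10 was at 2.10 ± 0.525 CPM in DKO and 18.1 ± 2.29 CPM in WT, and Lmo7 at 4.95 ± 1.43 CPM in DKO and 38.4 ± 3.35 CPM in WT. Both met the limit of 5 CPM only through the WT libraries. Lbh was at 9.08 ± 1.29 CPM in DKO and 52.6 ± 8.94 CPM in WT. Fzd2, highest in each DKO library and second to Fzd1 in each WT library, had the highest mean TPM over both groups together and was closest to Tmem138 (0.0473), Sec22c (0.0651) and Bcorl1 (0.0654), where the median was 0.376. None of these 3 was called.

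Around the receptors, 89 of 95 other WNT pathway genes on 12 lists were tested, and 11 were called lower and 5 higher in DKO (12.4% and 5.62%). Their log2 fold changes had a median of -0.11, against 0.03 over all tested genes, of which 2.81% were called lower and 1.70% higher. These lists too were chosen with earlier results of the data known. Of 17 ligand genes tested (median -0.40), Wnt5a and Wnt8a fell and Wnt2b rose. Wnt5a, a ligand of the branch without beta-catenin, was at 53.7, 19.6 and 29.3 CPM in DKO, against 247.7, 280.3 and 297.0 CPM in WT, a difference near that of Fzd1 in size (8.04-fold lower; log2 fold change -3.00, SE 0.31, edgeR adjusted p = 0.00133). Wnt2b, a ligand of the beta-catenin branch, was 11.7-fold higher from low levels, at 1.43 ± 0.194 CPM in DKO and 0.122 ± 0.0763 CPM in WT (edgeR adjusted p = 0.00466). Wls, which carries WNT proteins to the cell surface, fell 2.01-fold, to 307.6 ± 88.9 CPM in DKO against 618.5 ± 67.5 CPM in WT (edgeR adjusted p = 0.0205). It was the 1 called gene among 4 on a list that mixes WNT secretion with WNT inactivation (median 0.12). The log2 fold changes of the others were 0.33 for Porcn, -0.10 for Notum and 1.11 for Trabd2b.

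Among the partners of the receptors, Lrp5 and Lrp6 were not called, while Kremen1, which removes LRP6 with Dickkopf proteins, fell 2.42-fold (edgeR adjusted p = 0.0249). Of 4 tested co-receptors of the other branch, Ror1 rose 2.00-fold, to 63.7 ± 11.1 CPM in DKO against 31.8 ± 6.71 CPM in WT (edgeR adjusted p = 0.0226). Of 10 genes that set Frizzled turnover, the R-spondin gene Rspo2, a ridge marker too, fell to 0.700 ± 0.453 CPM in DKO against 76.3 ± 18.7 CPM in WT (edgeR adjusted p = 6.17e-05), and the R-spondin receptor gene Lgr6 rose 3.12-fold, to 20.2 ± 4.60 CPM in DKO against 6.47 ± 1.43 CPM in WT (edgeR adjusted p = 0.00922). Znrf3 and Rnf43, the ubiquitin ligases that remove Frizzled proteins from the membrane, were not called. Of 11 secreted antagonists (median 0.61), Sost fell 4.71-fold, to 15.2 ± 5.39 CPM in DKO against 71.3 ± 8.93 CPM in WT (edgeR adjusted p = 0.00160), and Wif1 fell 2.68-fold (0.0114). Dkk2 rose, with 1.75 ± 1.26 CPM in DKO and 0.0502 ± 0.0869 CPM in WT (edgeR adjusted p = 0.0337). Dkk2 reads in WT were in WT 32 alone.

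Of 9 planar polarity genes tested (median -0.51), the cadherin gene Celsr2 fell 2.79-fold, to 10.9 ± 3.93 CPM in DKO against 30.5 ± 0.768 CPM in WT, and Ankrd6, a homologue of fly diego, fell 3.60-fold (edgeR adjusted p = 0.0125 and 0.0169). Of 10 intracellular transducers, beta-catenin itself, Ctnnb1, fell 1.52-fold, to 1175 ± 213 CPM in DKO against 1791 ± 197 CPM in WT (edgeR adjusted p = 0.0477). Of 12 feedback genes Bambi, a decoy receptor of BMP and TGF-beta signals, fell 4.13-fold and Nkd1, an inhibitor of Dishevelled, rose 2.13-fold (edgeR adjusted p = 0.00596 and 0.0230). None of the 8 nuclear effectors or the 4 genes of Frizzled maturation was called. Nor was Tspan12, Adgra2 or Reck, the 3 genes tested on a list made for Norrin and Fzd4. Ndp, the Norrin gene, was at 0 CPM in every library. At an unadjusted p under 0.05 in edgeR these 3 lists gave 1 lower and 1 higher, 0, and 1 higher. DESeq2 called 1 lower and 1 higher, 0, and 0. The share of all tested genes at that unadjusted threshold was not taken.

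With each library left out in turn, Wnt5a, Rspo2, Bambi and Sost kept their calls and the other 12 did not. The call of Lgr6 went with WT 32 removed (edgeR adjusted p = 0.062), that of Wnt2b with WT 56 removed (0.0647), and those of Celsr2 and Wif1 with either of these (highest 0.0656 and 0.0606). For Kremen1 and Nkd1, removing DKO 40 or a single WT library of the 3 was enough (highest 0.116 and 0.129). For Ror1, removing any library other than DKO 17 and WT 56 was enough (highest 0.119). Ankrd6, Ctnnb1, Dkk2, Wls and Wnt8a kept their calls with DKO 41 removed and lost them with each other library removed (highest 0.0802, 0.197, 0.197, 0.106 and 0.199). The log2 fold change of Dkk2 was 4.94, and 4.31, 4.28 and 10.1 without DKO 17, WT 56 and WT 32. Without DKO 41, those of Wnt8a and Rspo2 were -2.76 and -7.34 in place of -1.91 and -6.73.

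**Figure D5:**
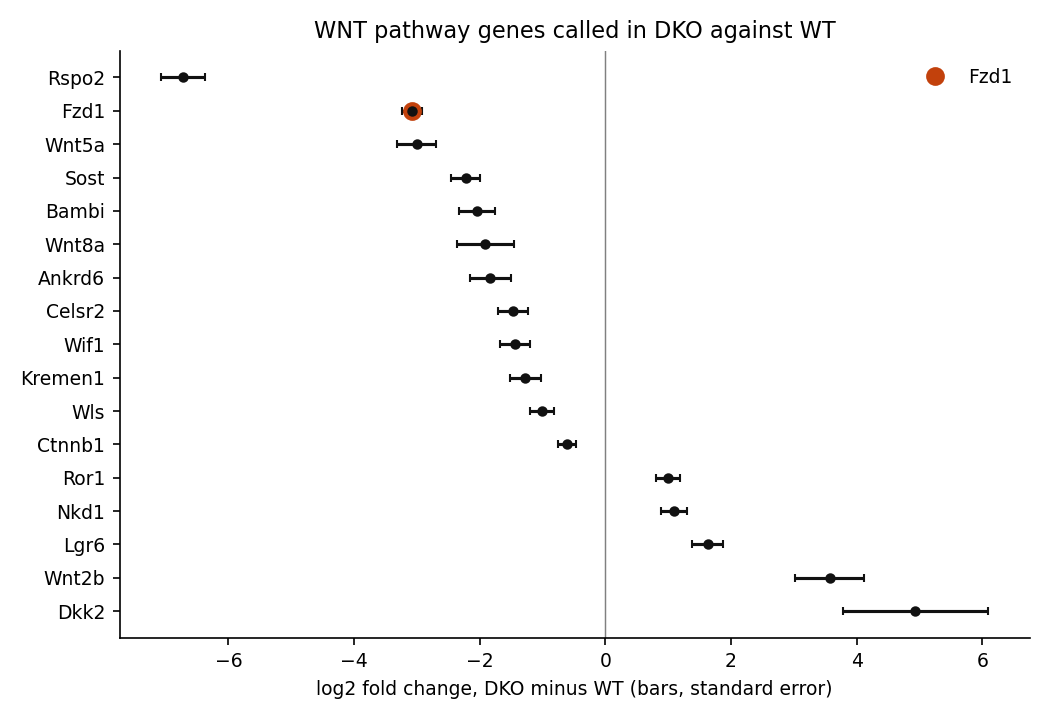
Log2 fold change (DKO minus WT) with standard errors of the 16 called WNT pathway genes and of Fzd1, marked in orange. Fzd1 at -3.07 lies beside the ligand gene Wnt5a at -3.00, and only Rspo2 at -6.73 is lower among the genes drawn.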

How the data were processed

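RNA of E9.75 forelimb-bud ectoderm was read as 6 columns, 3 DKO and 3 WT, of the table the authors deposited. It holds raw whole-number counts per gene. The submitters' processing notes name HISAT2, StringTie, Cufflinks, fastp, FastQC and DESeq2, and the builds mm10 and GRCm38; their versions and roles, and the way reads were counted, are not stated in any source used here. Per the labels' protocols, libraries were made with SMART-Seq v4 and Nextera XT, which mark neither strand nor molecule, so PCR copies count as reads. Column numbers match no replicate number of the labels, and the labels do not tell litters apart, so a p-value reflects only the variation among these 6 libraries. All pairs of libraries differed by more than sampling noise.

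Counts were fitted with edgeR 4.0.16 in R 4.3.3 (TMM scaling, low counts removed by filterByExpr, a robust quasi-likelihood fit by glmQLFit with legacy=FALSE) across 19126 genes, with Benjamini-Hochberg adjustment over all of them and a threshold of 0.05. Log2 fold changes are DKO minus WT, and the SE is their size divided by the square root of F. The fit was tested on simulated data. TPM divide counts by the union of exons in GENCODE M21, matched for 55141 of 55401 identifiers (99.53%). DESeq2 1.42.0, other scalings and filters, and each library left out were tried as alternatives. Members, lists and tests were chosen with earlier results of these data known. The rule for naming genes was to give all 10 members, the targeted genes, the called genes of each pathway list, and the 3 nearest profiles of Fzd1 and of the member with the highest per-length level.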

Additional observations from a re-analysis of the deposited data

How the results depend on the processing

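The log2 fold change of Fzd1 lay between -3.21 and -2.98 over 12 alternatives, as a description of the values the choice rests on. Its place in the per-length order, 5 in DKO and 1 in WT, did not change with the longest transcript as length or with 1 library left out. Under the same alternatives the Fzd1 share of the family total ran from 6.80% to 8.56% in DKO and from 40.8% to 44.4% in WT. That of Fzd2 ran from 39.8% to 48.1% in DKO and from 21.2% to 22.7% in WT. Fzd7 was called lower by DESeq2 alone, which made the count of Frizzled genes called lower 2 in place of 1. Fzd6 ran from -0.647 to 0.0165 with 1 library left out, changing sign without DKO 40, and was not called in any case. The other 106 of 108 values of single members kept their direction and call. The count of all genes called was 863, and 412 with no filter, 1670 by DESeq2, 546 with legacy=TRUE and 377 without WT 32 and DKO 41 together. It ran from 247 to 918 with 1 library left out. WNT pathway genes called lower were 11, and 6 with no filter, 7 with legacy=TRUE, 15 by DESeq2, and 4 to 17 with 1 library left out. Those called higher were 5, and 2 with no filter, 12 by DESeq2, 1 without WT 32 and DKO 41 together, and 1 to 7 with 1 library left out; the causes were not tested. No paired analysis was possible because the columns carry no replicate numbers of the labels. With 3 libraries a group, Fzd5 and Fzd9 are limited by counts under 70 in each library.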
